A study of Drosophila melanogaster with 46 samples.

Results

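Cluster 20A is a piRNA cluster on the X chromosome of Drosophila melanogaster. It was examined here as the 40 consecutive plus-strand windows of 1 kb that the deposited cluster table gives for chrX:21390001-21430000 (build dm3), of 80 windows in the table. The other 40 windows cover flamenco, the other cluster of the table. All windows under the 20A heading were taken, whatever their values, and they are numbered here 1 to 40 in increasing coordinate. The series holds 46 libraries from ovarian somatic cells (OSC), a cultured line derived from the somatic follicle cells of the ovary. The 5 used here are total small RNA libraries, 1 each of cells transfected 2 times with siRNAs against GFP (GFP-KD, the control), Armi (Armi-KD), Piwi (Piwi-KD), SetDB1 (SetDB1-KD) or HP1 (HP1-KD) and analysed after 4 days. The labels give no replicate and no measure of how far each protein was depleted. The series has mRNA libraries of GFP-KD, Piwi-KD and SetDB1-KD, which were not analysed here. It has none of Armi-KD or HP1-KD.

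piRNA clusters are loci whose long transcripts, rich in transposon fragments, are cut into piRNAs, and in follicle cells the main clusters are read from 1 strand. Armi (Armitage) is an RNA helicase that is needed to make piRNAs and to load them into Piwi, the nuclear Argonaute protein that carries piRNAs to nascent transposon transcripts. SetDB1 is a histone methyltransferase of lysine 9 of histone H3, and HP1 is the heterochromatin protein that binds this mark. Both act downstream of Piwi in silencing transposons, and in the germline heterochromatin marks are also needed for transcription of dual-strand clusters.

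The deposited unit is a normalized piRNA count per window, called signal below. The values of a library were all multiples of 1 number, which was taken to stand for 1 read. Whether a read was counted in more than 1 window is not known. The 20A block held 854324 reads in GFP-KD, 168733 in Armi-KD, 121048 in Piwi-KD, 752781 in SetDB1-KD and 593727 in HP1-KD. Where a percentage of GFP-KD is given with an interval, it is a 95% exact conditional binomial interval on these reads. Such an interval covers counting error only and says nothing of the spread between cultures, and without molecular identifiers several reads may come from the same molecule. With 1 library per knockdown no difference has a replicate check, and no test was made. In RNA from a whole culture, fewer cells and less RNA per cell cannot be told apart.

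In GFP-KD the signal began and ended sharply, and the borders lay in the same windows in all 5 libraries. The first window at or above 5% of the block's mean was window 3 (chrX:21392001-21393000), and the last was window 38 (chrX:21427001-21428000). Window 1, the left end of the block, had a signal of 33.2 and window 2 had 144. Window 3 then had 8752, a step of 60.9-fold (95% counting interval 50.2 to 74.6), and window 4 had 27493. At the right end, window 37 had 35487, window 38 had 5627, window 39 had 142 and window 40 had 102, so that the signal was 39.5-fold lower in window 39 than in window 38. The windows outside the span and the gap inside it held 0.0370% of the block's signal in GFP-KD. Thus 34 of the 40 windows carried nearly all of the small RNAs of the block.

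A gap of 2 windows divided the span. In GFP-KD the signal was 18134 in window 9, 6.91 in window 10 (chrX:21399001-21400000), 8.29 in window 11 (chrX:21400001-21401000) and 15028 in window 12. These windows were picked for description after their values were seen, and they held 5 and 6 reads. The gap was present in every library. Its levels in windows 10 and 11 were 2.62 and 3.49 in Armi-KD, 7.66 and 1.09 in Piwi-KD, 18.4 and 11.3 in SetDB1-KD, and 58.4 and 37.1 in HP1-KD. In HP1-KD the gap held 33 and 21 reads, and its sum was at 628% of GFP-KD (325 to 1332), yet still 0.00910% of the library's 20A signal. Left of the gap, windows 3 to 9 held 18.6% of the GFP-KD signal. To its right, windows 12 to 38 held 81.4%.

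Within the span, GFP-KD had 5 peaks of at least 2 times the mean window (29522), which were also its 5 highest windows. Window 5 (chrX:21394001-21395000) was the highest at 86355, which is 7.31% of the block. It stood alone, with 27493 in window 4 and 28437 in window 6. Window 20 (chrX:21409001-21410000) had 66147, window 23 (chrX:21412001-21413000) had 63776, window 35 (chrX:21424001-21425000) had 62289 and window 17 (chrX:21406001-21407000) had 60177. Together the 5 peaks held 28.7% of the signal, and the 10 highest windows were needed to reach 50%. The profile was therefore broad, with a high central part from window 16 to window 25 (40.5% of the signal) and a second rise from window 33 to window 35. Between them, in windows 26 to 32, the level was 11683 to 33502. Windows 26 to 30 were below the mean window, and windows 31 and 32 were above it.

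**Figure D1:**
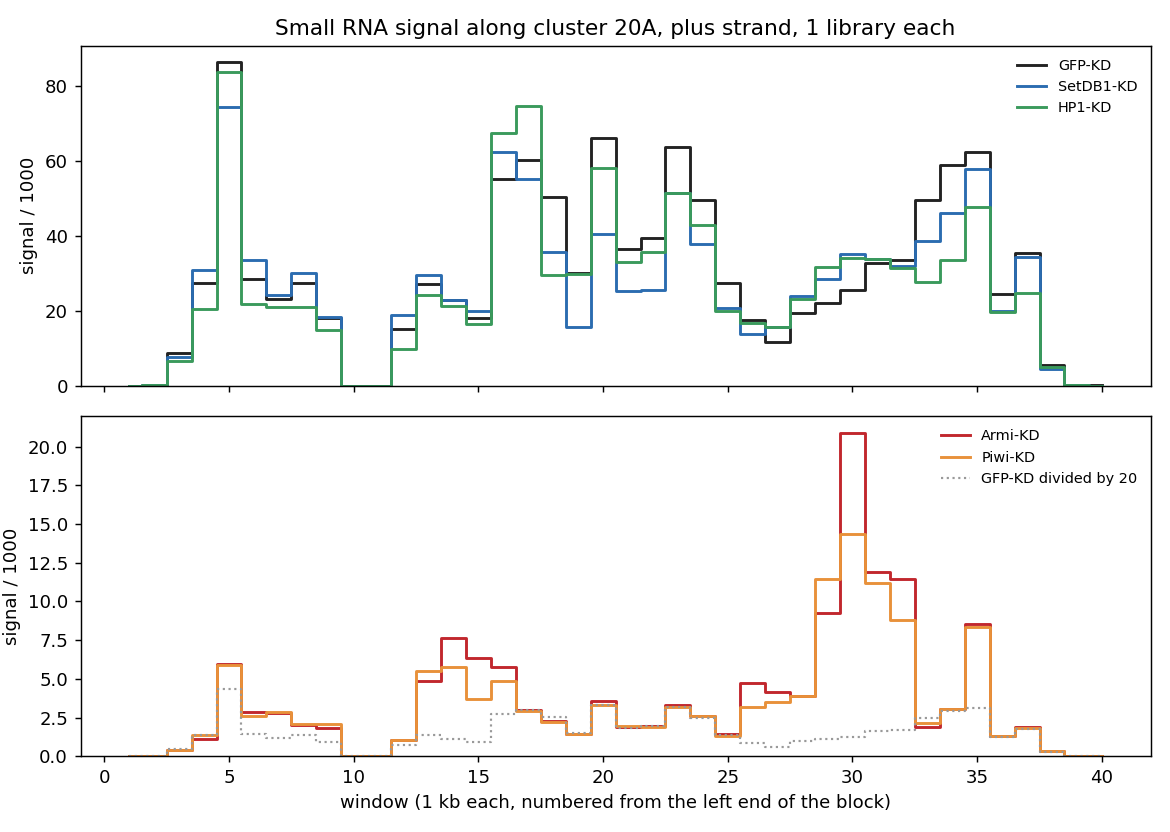
Small RNA signal (deposited normalized counts, divided by 1000) in each 1-kb window of 20A, with 1 line per library. The upper panel shows GFP-KD, SetDB1-KD and HP1-KD, with the peak of window 5 and the gap at windows 10 and 11; the lower panel shows Armi-KD and Piwi-KD with GFP-KD divided by 20 as a dotted line, which they follow closely in windows 17 to 25 and lie above, among others, at windows 13 to 15, 26 to 32 and 35.

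Armi-KD and Piwi-KD, in which proteins that make or bind piRNAs were targeted, were compared first. Summed over the block, the signal was 1180896 in GFP-KD, 147120 in Armi-KD and 132380 in Piwi-KD. Armi-KD thus kept 12.5% of the GFP-KD signal (12.4 to 12.5) and Piwi-KD 11.2% (11.1 to 11.3). Windows with at least 100 reads in GFP-KD, 36 of the 40, were compared singly, and all 36 were lower in both knockdowns. A fall of at least 2-fold was met by 35 of 36 windows in Armi-KD and 34 of 36 in Piwi-KD. Over both clusters 98.6% of the windows met it in Armi-KD and 97.2% in Piwi-KD, so these shares are those of the background. These values rest on the deposited scale. With each library set to the same sum over both clusters, which by construction removes a loss shared by them, the 20A sum was at 157% of GFP-KD in Armi-KD and 147% in Piwi-KD. On that scale 2 windows in Armi-KD and 1 in Piwi-KD were at least 2-fold lower, and 10 in each were at least 2-fold higher.

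On the deposited scale, the signal left was uneven along the locus. In the median window 6.62% of the GFP-KD signal was left in Armi-KD and 6.36% in Piwi-KD, and 21 of 36 windows kept less than 8% in either knockdown. Window 5, the main peak, went from 86355 to 5960 in Armi-KD (6.90% of GFP-KD) and 5883 in Piwi-KD (6.81%). Window 17 kept 4.92% and 4.84%, window 20 kept 5.37% and 5.03%, and window 23 kept 5.23% and 4.98%. The central peaks were thus all near 5%. The lowest percentages in well-covered windows were those of window 33 (chrX:21422001-21423000), with 3.84% in Armi-KD (3.68 to 4.01) and 4.30% in Piwi-KD (4.11 to 4.50), of window 4 in Armi-KD (4.14%) and of window 18 in Piwi-KD (4.44%). Window 39 in Armi-KD (1.84%, 0.373 to 5.52) and window 2 in Piwi-KD (3.04%, 0.814 to 8.03) were lower still, but from 3 and 4 reads.

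More signal than in the median window was left in a stretch of 7 kb, windows 26 to 32 (chrX:21415001-21422000). Most of these windows still fell by at least 2-fold in both knockdowns. Window 30 (chrX:21419001-21420000) had 25449 in GFP-KD, 20906 in Armi-KD, 14361 in Piwi-KD, 35270 in SetDB1-KD and 33994 in HP1-KD. It kept 82.1% of the GFP-KD signal in Armi-KD (80.6 to 83.7) and 56.4% in Piwi-KD (55.2 to 57.7), in both the highest percentage of the 36 windows compared. It was the highest window of the block in these 2 libraries, with 14.2% and 10.8% of their 20A signal, against 2.2% in GFP-KD. Its left neighbour, window 29 (chrX:21418001-21419000), had 22124 in GFP-KD, 9261 in Armi-KD and 11475 in Piwi-KD, or 41.9% and 51.9%. At the limit of 50% of GFP-KD, window 30 in Armi-KD and windows 29 and 30 in Piwi-KD were the windows kept; over both clusters 1.39% and 2.78% of the windows were. Windows 29 and 30 in Piwi-KD are thus the only run of adjacent windows at or above this limit. Window 29 lies just inside it there (50.6 to 53.2) and below it in Armi-KD (40.8 to 42.9).

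The other 5 windows of the stretch kept less than windows 29 and 30, but more than the median window. Window 31 kept 36.5% in Armi-KD and 34.2% in Piwi-KD, window 32 kept 34.1% and 26.4%, window 27 kept 35.3% and 29.7%, window 26 kept 27.1% and 18.4%, and window 28 kept 19.7% and 19.99%. As a whole the 7 windows went from 162455 in GFP-KD to 40.8% of that in Armi-KD and 34.7% in Piwi-KD. They held 13.8% of the 20A signal in GFP-KD, but 45.0% in Armi-KD and 42.6% in Piwi-KD. Both edges were steep. From window 25 to window 26 the signal fell from 27557 to 17466 in GFP-KD but rose from 1425 to 4732 in Armi-KD and from 1282 to 3209 in Piwi-KD. From window 32 to window 33 it rose from 33502 to 49685 in GFP-KD, while it was 5.99-fold lower in Armi-KD (11440 to 1909) and 4.13-fold lower in Piwi-KD (8831 to 2138).

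A second, shorter stretch lay in windows 13 to 15 (chrX:21402001-21405000), right of the gap. Window 14 had 22839 in GFP-KD, 7607 in Armi-KD and 5747 in Piwi-KD, and so kept 33.3% and 25.2%. Window 15 had 18070, 6314 and 3712, and kept 34.9% and 20.5%. In window 13, 17.9% and 20.2% were left. The stretch began between window 12, at 6.85% and 7.06%, and window 13, and it faded through window 16, at 10.4% and 8.82%, to window 17. Of the compared windows outside both stretches, the peak in window 35 kept the most, 13.7% and 13.4%. Its neighbours were at 5.15% and 5.22% in Armi-KD and 5.21% and 5.37% in Piwi-KD. Left of the gap, windows 6, 7 and 9 kept 10.07%, 12.01% and 10.04% in Armi-KD. In Piwi-KD these windows kept 9.04%, 12.35% and 11.32%, while window 8 between them kept less in both knockdowns.

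At a limit of 2 times the median window, chosen after the values had been seen, the same 11 windows were kept in Armi-KD and in Piwi-KD: the 3 of windows 13 to 15, the 7 of windows 26 to 32, and window 35. Over both clusters 19.4% and 18.1% of the windows met this limit. At 2 times the percentage of the whole 20A sum, the kept windows numbered 8 in Armi-KD and 6 in Piwi-KD, against 12.5% and 9.72% over both clusters. At this second limit windows 13 and 28 were kept in neither knockdown, and windows 15 and 26 were not kept in Piwi-KD. Of the shorter stretch, only window 14 then remained in Piwi-KD. The 10 windows of both stretches kept 36.9% of their GFP-KD signal in Armi-KD and 30.97% in Piwi-KD. In the other 30 windows 6.53% and 6.42% were left. The stretches thus went from 19.5% of the GFP-KD signal to 57.8% of the Armi-KD signal and 53.9% of the Piwi-KD signal. These percentages describe windows chosen by them and are no test.

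Because GFP-KD is the shared denominator, the percentages were also taken relative to SetDB1-KD and HP1-KD, libraries that do not enter the values above. The Armi-KD and Piwi-KD values are still those that picked the windows, and SetDB1-KD and HP1-KD have profiles much like that of GFP-KD. Finding the same windows is therefore no independent check. Relative to SetDB1-KD, 10 windows reached 2 times the median in both Armi-KD and Piwi-KD. These were the 10 windows of both stretches, without window 35. Relative to HP1-KD the 11 windows were the same as with GFP-KD. Window 30 had 59.3% (SetDB1-KD) and 61.5% (HP1-KD) in Armi-KD and 40.7% and 42.2% in Piwi-KD, lower than with GFP-KD since this window was higher in SetDB1-KD and HP1-KD. The GFP-KD level of the 10 windows had a median of 22482 (11683 to 33502), against 32773 (142 to 86355) in the other 26 compared. These 10 windows were thus of middling height and included none of the 5 peaks. Window 35, which reached 2 times the median relative to GFP-KD and HP1-KD, is not among the 10 and is a peak.

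**Figure D2:**
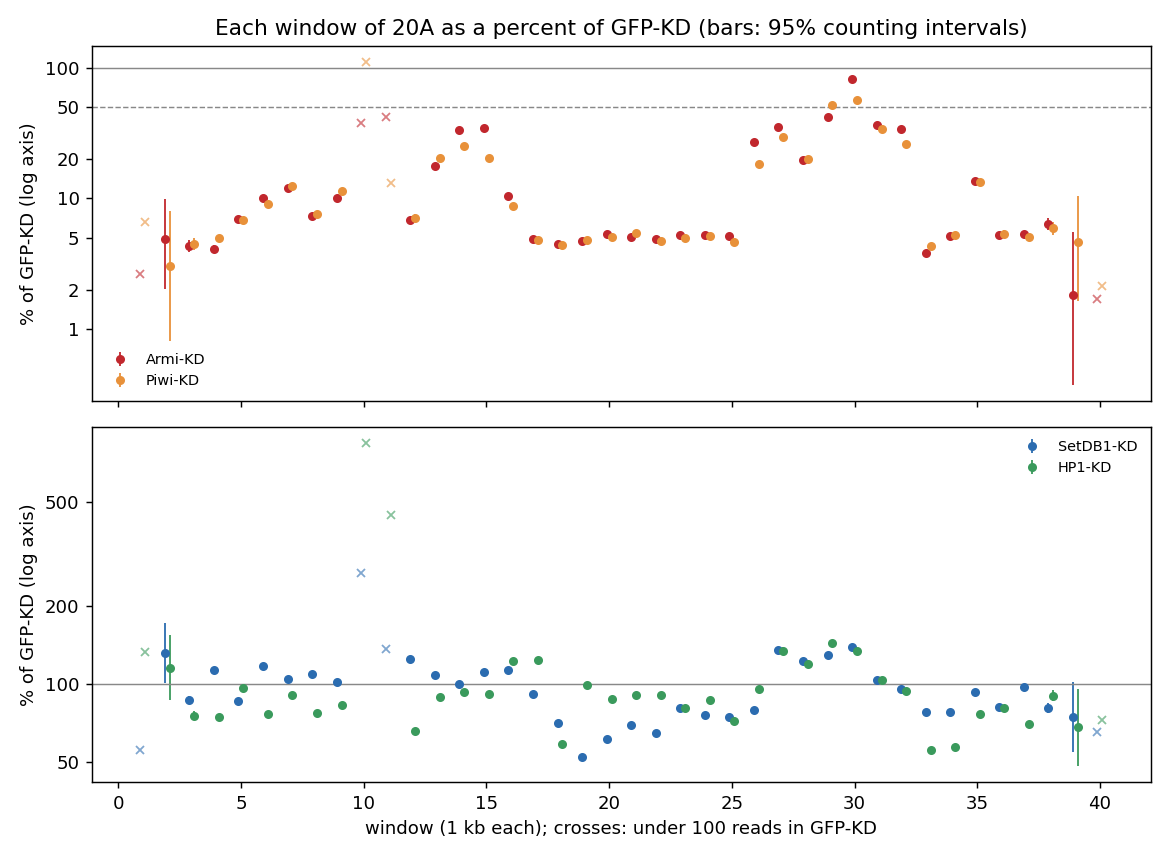
Signal of each 20A window as a percent of GFP-KD on a log axis, with 95% counting intervals as bars; crosses mark the 4 windows with under 100 reads in GFP-KD. In the upper panel Armi-KD and Piwi-KD lie near 5% in windows 17 to 25 and reach 82.1% and 56.4% at window 30, above the dashed line at 50%; in the lower panel SetDB1-KD and HP1-KD lie between 52.4% and 143% in the windows with 100 reads.

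The profiles of Armi-KD and Piwi-KD were much alike. Across the 40 windows, levels in Armi-KD and Piwi-KD had a Pearson r of 0.963 and a Spearman rho of 0.988. GFP-KD had an r of 0.260 with Armi-KD and 0.327 with Piwi-KD, but 0.942 with SetDB1-KD and 0.926 with HP1-KD. Without the 10 windows of both stretches, r with GFP-KD was 0.826 for Armi-KD and 0.833 for Piwi-KD. Those windows were chosen by their percentages of GFP-KD, so a higher r without them follows largely from that choice. These correlations are over neighbouring windows that may share reads, and are given as a description.

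Set directly against each other, Armi-KD and Piwi-KD differed by at most 1.2-fold in 27 of the 36 windows, with a median ratio of 1.02. The larger differences lay mainly in the stretches described above. Armi-KD was higher in window 15 by 1.70-fold (95% counting interval 1.63 to 1.77), in window 26 by 1.47-fold (1.41 to 1.54), in window 30 by 1.46-fold (1.43 to 1.49), in window 14 by 1.32-fold (1.28 to 1.37) and in window 32 by 1.30-fold (1.26 to 1.33). Window 29 went the other way, at 0.807 (0.786 to 0.829), as did window 4, at 0.830 (0.768 to 0.898). The remaining 2 windows past this limit, windows 2 and 39, had under 10 reads in each library. Whether these differences would recur in other cultures cannot be told from 1 library each.

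**Figure D3:**
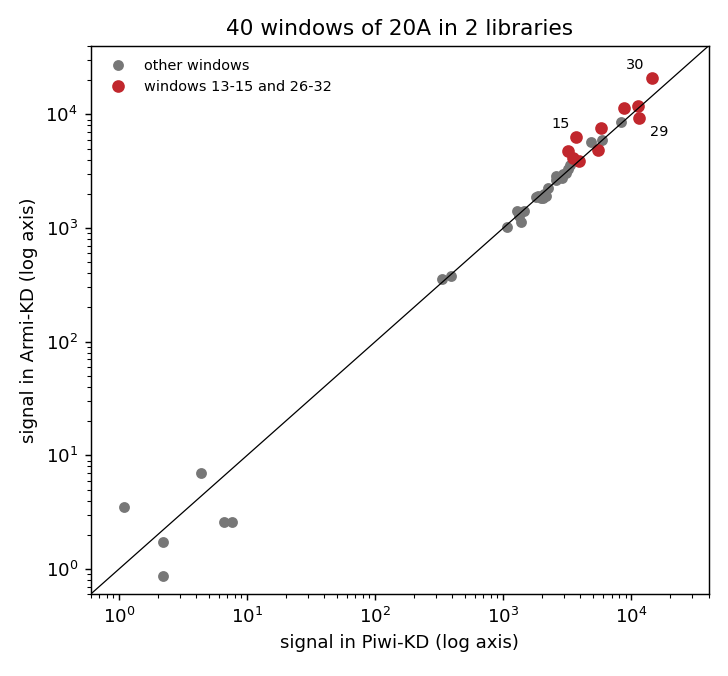
Signal of the 40 windows of 20A in Armi-KD against Piwi-KD on log axes; each point is 1 window, and the line marks equal levels. The windows of both stretches (red) lie at the upper end, between 3209 and 20906, with windows 15 and 30 above the line and window 29 below it.

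In SetDB1-KD and HP1-KD, in which proteins that act on chromatin were targeted, the sum of 20A was nearer to the control. The block's sum was 1066511 in SetDB1-KD, 90.3% of GFP-KD (90.0 to 90.6), and 1050047 in HP1-KD, 88.9% (88.6 to 89.2). With the same sum over both clusters it was at 104% and 80.1%, so that the direction in SetDB1-KD depends on the scale. No window with at least 100 reads in either library differed by 2-fold, against 0% lower and 1.37% higher over both clusters in SetDB1-KD and 0% in either direction in HP1-KD. The percentages ranged from 52.4% to 139% in SetDB1-KD, with 15 windows above GFP-KD and 21 below, and from 56.0% to 143% in HP1-KD, with 8 above and 28 below. The windows of the block thus lay on both sides of the control, many of them by amounts beyond counting error. Some intervals included 100%, such as those of window 14 in SetDB1-KD (97.5 to 102) and window 19 in HP1-KD (97.5 to 101).

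In SetDB1-KD the lower values included a run of neighbours, windows 18 to 25 (chrX:21407001-21415000), at 69.6% of GFP-KD in sum (69.2 to 70.0), against 82.7% in HP1-KD. Its lowest windows were window 19 at 52.4% (30060 to 15760), window 20 at 61.3% (66147 to 40521) and window 22 at 65.0% (39451 to 25649). HP1-KD was lowest in window 33 at 56.0% (49685 to 27807), window 34 at 57.1% (58858 to 33631) and window 18 at 58.6% (50374 to 29528). Windows 33 and 34 are neighbours, while window 18 stood alone between window 17 at 124% and window 19 at 99.5%. In SetDB1-KD windows 33 and 34 were at 78.0% and 78.2%. Windows 16 and 17, next to the SetDB1-KD run, were at 102% in SetDB1-KD and 123% in HP1-KD in sum. Window 5 was the highest in both libraries, at 74308 in SetDB1-KD and 83623 in HP1-KD. Of the 5 highest windows of GFP-KD, 4 were also among the 5 highest of each library, with window 16 in place of window 20 in SetDB1-KD and of window 35 in HP1-KD. Window 16 (62493) was also above window 17 (55255) in SetDB1-KD, whereas it was below it in GFP-KD.

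Of the 3 highest percentages among the windows compared, 2 in SetDB1-KD and all 3 in HP1-KD lay in windows 27 to 30. These windows lie inside the stretch that kept more than the median window in Armi-KD and Piwi-KD. Window 30 was at 139% of GFP-KD in SetDB1-KD (136 to 141) and 134% in HP1-KD (131 to 136). Window 29 was at 129% and 143%, window 27 (chrX:21416001-21417000) at 135% and 134%, and window 28 at 122% and 119%. Windows 27 to 30 were at 131% and 133% in sum, while windows 31 and 32 were at 104% and 95.7% in SetDB1-KD and 104% and 93.9% in HP1-KD. Window 26, the left end of the stretch, was below the control in both, at 79.7% and 95.7%. Window 2, at the left border, was at 131% in SetDB1-KD, from 133 reads against 104 (101 to 171). All 4 knockdowns are divided by the 1 GFP-KD library, so its level in windows 27 to 30 enters each of these percentages.

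By segments of 5 windows, the shift is plain. The sixth segment (windows 26 to 30) held 8.15% of the 20A signal in GFP-KD, 11.01% in SetDB1-KD and 11.6% in HP1-KD, but 29.1% in Armi-KD and 27.5% in Piwi-KD. The fourth segment (windows 16 to 20), the largest in GFP-KD at 22.2%, held 10.8% in Armi-KD and 11.2% in Piwi-KD. In the third segment (windows 11 to 15) the share was 7.04% in GFP-KD, 13.5% in Armi-KD and 12.1% in Piwi-KD. The 50% mark was reached with the 7 highest windows in Armi-KD and 8 in Piwi-KD, against 11 in SetDB1-KD and 10 in HP1-KD. These shares do not depend on how a library was scaled.

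**Figure D4:**
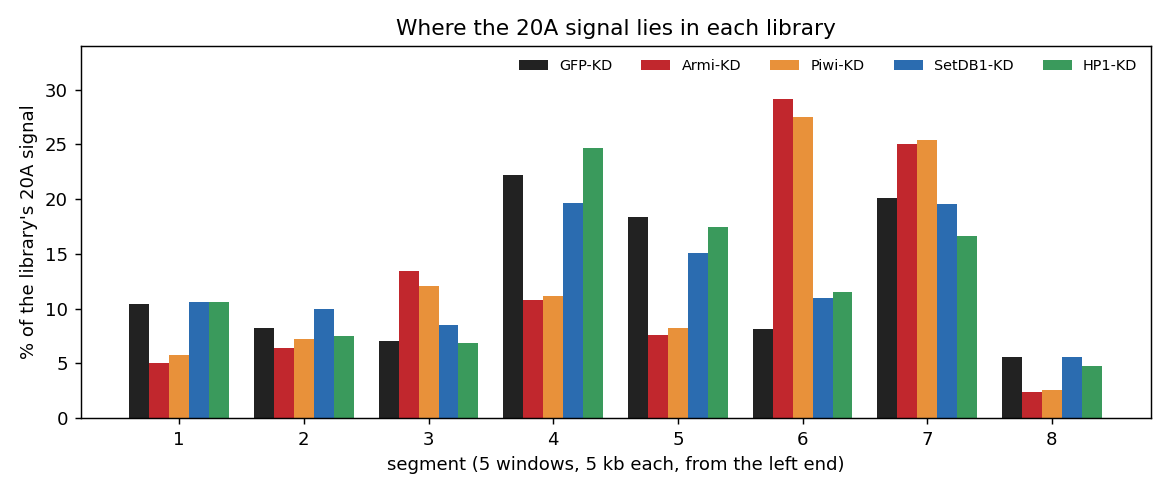
Share of each library's 20A signal (percent) in 8 segments of 5 windows, with 1 bar per library and segment. Armi-KD and Piwi-KD stand above the others in segments 3, 6 and 7 (29.1% and 27.5% in segment 6) and below them in the other 5 segments.

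Flamenco was measured in the same libraries. Its sum was at 6.66% of GFP-KD in Armi-KD and 6.62% in Piwi-KD, so that 20A kept 1.87 times (95% counting interval 1.86 to 1.88) and 1.69 times (1.68 to 1.71) as much. The median windows were nearly equal, at 6.51% in flamenco against 6.62% in 20A for Armi-KD and 6.21% against 6.36% for Piwi-KD. Outside the 10 windows of both stretches, 20A was at 6.53% and 6.42%. Those 10 windows were chosen by this percentage, while the flamenco sum still holds its own highest window. The 2 clusters are thus not compared on like terms here. At 20% of GFP-KD, a limit chosen after the values were seen, 1 of 36 flamenco windows and 8 of 36 in 20A were kept in each knockdown. In 20A, window 26 passed only in Armi-KD (27.1% against 18.4%) and window 13 only in Piwi-KD (20.2% against 17.9%). The flamenco window, its window 37, had 36.0% in Armi-KD and 37.1% in Piwi-KD. In SetDB1-KD the change of 20A was 1.05 times that of flamenco (1.05 to 1.06). In HP1-KD 20A was lower than GFP-KD while flamenco was at 117%, a ratio of 0.758 (0.756 to 0.761).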

How the data were processed

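Per the file headers, the authors deposited normalized piRNA counts, a signal per 1 kb window and strand, for 40 windows of 20A and 40 of flamenco. What they were normalized to is not given in the sources used here, nor are the read sizes, the mismatches allowed or the treatment of reads matching several places, so windows that hold like sequence may share reads. The submitters' processing notes name bedtools 2.16.1, SAMtools 0.1.16, Bowtie 0.12.7, cutadapt 1.0 and build dm3, without roles.

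Reads are the values of each library divided by the largest step of which all are whole multiples (within 0.02 reads). The step was taken as 1 read. If the step stands for 1 read in 1000000, the reference totals are 565429 to 1146906 reads. The 20A block alone exceeds that total in GFP-KD, SetDB1-KD and HP1-KD. The reference is thus not all reads of these windows, unless reads were counted in more than 1 window. Ratios to GFP-KD have exact conditional binomial 95% intervals; that of 20A to flamenco ratios uses a normal approximation on the log scale. The 2-fold limit required 100 reads in the larger library, and the 50% limit 100 reads in GFP-KD. The intervals were tried on simulated reads that had counting error only. This could not test them for duplicate or shared reads or for the spread between cultures.

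Named windows are the 5 highest in GFP-KD, maxima of 2 times the mean, the ends of the block and of the span, the 3 largest and 3 smallest ratios per knockdown and runs of kept windows; others were named after their values were seen. Members, limits and rules were chosen with earlier results of these data known. The table of immunoprecipitated small RNAs, which has no cluster positions, and the other 41 libraries were not used here. No genome or annotation of dm3 was used, so transposon content, genes and sequence of the windows are not described. Python 3.11.15, numpy 2.4.6, pandas 2.3.3, scipy 1.17.1 and matplotlib 3.10.9 were used.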

Additional observations from a re-analysis of the deposited data

How the results depend on the processing

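All 20A sums changed with the scale. Their direction turned in Armi-KD, Piwi-KD and SetDB1-KD, while the HP1-KD sum stayed below GFP-KD. In SetDB1-KD and HP1-KD 0 windows passed 2-fold, both as deposited and with the same sum over both clusters. With each library set to the same sum over both clusters, the 20A sum was at 157% of GFP-KD in Armi-KD, 147% in Piwi-KD, 104% in SetDB1-KD and 80.1% in HP1-KD, and with the same flamenco sum at 187%, 169%, 105% and 75.8%. By construction these scales remove a loss shared by both clusters. On the first, 2 windows in Armi-KD and 1 in Piwi-KD were at least 2-fold lower and 10 in each were higher, and 34 and 35 were kept at 50%. On this scale 15 of the 36 windows turned from below to above GFP-KD in Armi-KD (127% to 1036%) and the same 15 in Piwi-KD (116% to 740%), namely windows 6, 7, 9, 13 to 16, 26 to 32 and 35. Among the named windows these values, in Armi-KD and Piwi-KD, were 14 (420% and 330%), 15 (441% and 269%), 26 (342% and 241%), 27 (445% and 390%), 31 (460% and 449%), 32 (431% and 346%), 35 (173% and 176%), 29 (528% and 680%) and 30 (1036% and 740%). In SetDB1-KD windows 14, 17, 32, 35 and 37 turned above, and in HP1-KD window 31 turned below (93.5%). Shares within 20A and the 20A to flamenco ratios do not depend on the scale. Without window 5, the sums were at 12.9% in Armi-KD, 11.6% in Piwi-KD, 90.7% in SetDB1-KD and 88.3% in HP1-KD. Without windows 13 to 15 and 26 to 32, chosen after seeing the data, they were at 6.53%, 6.42%, 85.3% and 84.3%. With no minimum of reads, 1 window in SetDB1-KD and 2 in HP1-KD, all in the gap, were at least 2-fold higher. In windows of 2 kb, 1 was kept in Piwi-KD, against 2 of 1 kb. At 2 times the percentage of the whole sum, 6 windows passed in Piwi-KD, against 11 at 2 times the median. In GFP-KD the borders at 1% and 20% of the mean gave spans of 36 and 35 windows. No paired analysis was possible because each knockdown has 1 small RNA library and no test was made. Depth limits windows 1, 2, 10, 11, 39 and 40, where Armi-KD and Piwi-KD had 1 to 8 reads each.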
